A study of Mus musculus with 20 samples.

Results

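The 6 genes of the Egr and Nr4a families studied here (Egr1, Egr2, Egr3, Nr4a1, Nr4a2 and Nr4a3) were followed in macrophages generated from B cells (B-MF), macrophages generated from monocytes (Mo-MF) and tumor-associated macrophages (TAM). All 6 were found among the 15855 genes of the scRNA-seq table of the cultures and among the 15333 genes of the TAM table, out of 16790 genes in either. The genes were chosen from earlier results of these data, in which Nr4a1 and Egr1 were among the genes with the largest difference between B-MF and Mo-MF and Egr1 was compared across classes of TAM. The differences of these genes between B-MF and Mo-MF are therefore described without a test. B-MF were grown for a week from sorted lineage-negative BM B cells in medium conditioned by 4T1.2, a mouse mammary cancer line, and Mo-MF were grown from monocytes in the same medium, with 2 libraries of each. Both were detached in cold buffer without enzymes. The strain of the cultured mice is not given in the sources used here. TAM were purified by cell sorting from 4T1.2 tumors of 4 mice and gave 4 libraries, numbered 2 to 5 as in the deposited table, which could not be matched to single mice. ATAC-seq, which marks open chromatin by transposase insertion, was done on CSF1R+ and CSF1R- B-cell precursors (BMBP) of BM and spleen of naïve mice, with 3 libraries of each kind. The labels call these cells macrophages, while the study's methods describe them as B-cell precursors.

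Genes of both families are immediate-early genes, whose transcription starts within minutes of a signal from already present factors and whose messenger RNA is short-lived. Egr1, Egr2 and Egr3 are zinc finger factors that bind the same GC-rich site and are held back by the co-repressors Nab1 and Nab2. In myeloid cells Egr1 and Egr2 are known for their part in macrophage differentiation downstream of the receptor for M-CSF, CSF1R, and Egr2 and Egr3 are known as brakes on lymphocyte activation. Nr4a1 (Nur77), Nr4a2 (Nurr1) and Nr4a3 (Nor1) are orphan nuclear receptors without a known physiological ligand. Nr4a1 is required for patrolling monocytes, and the family restrains inflammatory genes in macrophages. Egr genes are classically induced through ERK, serum response factor (SRF) and its partners at CArG boxes, and Nr4a genes through cyclic AMP, calcium and the factor CREB at the cyclic AMP response element (CRE).

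Promoter sequence from RefSeq (GRCm38.p6) was found for 4 of the 6 genes, Egr2, Nr4a1, Nr4a2 and Nr4a3. Stretches are shown because all 12 ATAC-seq libraries had a peak over each of these windows and because each holds CRE cores. Capitals mark the core of the CRE, TGACG on either strand (printed as TGACG or CGTCA), and in Egr2 also the CArG box. Each stretch is printed 5′ to 3′ on the strand of its gene, at chr10:67537791-67537820 (+) for Egr2, chr15:101266596-101266845 (+) for Nr4a1, chr2:57124004-57124253 (-) for Nr4a2 and chr4:48045055-48045152 (+) for Nr4a3. The stretch of Nr4a1 lies inside the gene's longest model, outside its annotated exons, and those of Nr4a2 and Nr4a3 lie upstream of the annotated exons of the gene. That of Egr2 is a site of 30 bases inside a first exon of a longer RefSeq transcript.
Egr2: ctcagtCCATATATGGgcagcgaCGTCAcg
Nr4a1: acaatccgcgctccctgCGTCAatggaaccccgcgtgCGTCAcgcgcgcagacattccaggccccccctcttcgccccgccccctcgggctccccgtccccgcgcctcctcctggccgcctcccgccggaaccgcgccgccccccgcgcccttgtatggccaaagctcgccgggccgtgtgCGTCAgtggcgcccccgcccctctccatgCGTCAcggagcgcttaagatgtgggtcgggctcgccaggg
Nr4a2: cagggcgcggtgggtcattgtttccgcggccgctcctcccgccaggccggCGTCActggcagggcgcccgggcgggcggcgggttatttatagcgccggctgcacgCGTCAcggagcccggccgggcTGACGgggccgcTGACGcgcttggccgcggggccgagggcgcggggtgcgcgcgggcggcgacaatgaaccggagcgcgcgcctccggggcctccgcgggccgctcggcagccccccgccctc
Nr4a3: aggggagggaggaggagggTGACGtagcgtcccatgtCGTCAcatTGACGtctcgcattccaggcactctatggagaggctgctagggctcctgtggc

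Matches were counted on both strands in the whole window, from 250 bases before to 50 after the start. The windows of Nr4a1, Nr4a2 and Nr4a3 each held 4 CRE cores, a number that 76 of 32851 promoter windows reached (0.231%), while 20.8% held at least 1. The cores of Nr4a1 began 233, 213, 69 and 40 bases before its start site. Those of Nr4a3 began 231, 213, 205 and 147 bases before its RefSeq start at 48045305, the last of them past the end of the printed stretch. The Egr2 window held 2 CRE cores and a CArG box at 72 to 63 bases before the start, a box found in 1.63% of windows. Nr4a1 and Nr4a2 each held 1 site of the Egr family, spelled GCGNGGGCG and present in 5.55% of windows, and Nr4a2 held 1 TATAAA (13.6% of windows). None of the 4 windows held the full palindrome TGACGTCA (1.79% of windows), the Nr4a monomer site AAAGGTCA (1.51%) or the AP-1 site TGANTCA (7.81%). These matches describe letters and not binding.

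The deposited values were the natural log of 1 plus a count corrected to a shared depth by SCTransform, and all of them converted back to whole numbers. Libraries held 4846 to 5389 cultured cells and 2318 to 3180 TAM, with medians of 18350 to 19469 and of 7651 to 8266 corrected counts per cell, which are not the sequencing depth. Libraries shared 4 to 14 cell barcodes within the cultures and 0 to 4 within TAM. The Mo-MF libraries held other cells besides macrophages. Clusters meeting neutrophil markers made up 10.3% and 9.54% of the cells of the 2 libraries, and the summed level of 7 neutrophil markers was 152.6 and 123.7 counts per cell, against 4.83 and 4.56 in B-MF. Monocyte/macrophage-like clusters held 25.8% and 25.4% of Mo-MF cells. Unnamed clusters held 63.9% and 65.0%, among them the main one, led by Bex1 and Fn1, which met no marker list. A marker counted as met where its mean in a cluster exceeded the mean over clusters, so an unnamed cluster need not lack macrophage markers. Cd68 was found in 99.73% and 99.85% of all Mo-MF cells and Csf1r in 97.05% and 96.99%. At a clustering resolution of 0.25, a cluster led by Bex1 and Fn1 was named monocyte/macrophage-like. It met 6 of 8 macrophage and 3 of 5 dendritic markers. B-MF libraries had a summed level of 293 and 282 for 8 macrophage markers, against 600 and 590 for Mo-MF. This order was that of Apoe, at 146 and 139 against 507 and 499, while the other 7 were each higher in both B-MF libraries. In TAM, which the labels call macrophages, neutrophil-like clusters held 37.0% to 63.2% of the cells and monocyte/macrophage-like clusters 31.5% to 60.0%. Levels are means of corrected counts per cell from 3′ tags, compared between samples for a gene. Fewer positive cells and less RNA per positive cell both lower such a mean, so the share of cells with a count is given beside it. Shares of the counts held by a kind of cell are of corrected counts. As cells were corrected to a shared depth, they are not shares of the RNA present.

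Every Egr gene was higher in both B-MF libraries than in both Mo-MF libraries. Egr1 averaged 7.40 and 6.97 counts per B-MF cell against 1.27 and 1.10 per Mo-MF cell (2.51 on the log2 scale, SE 0.0725, n = 2 per group). Differences are on the scale of log2(mean + 0.1), which understates the change of low genes. Egr1 was the most widespread of the 6, with a count in 89.7% and 89.4% of B-MF and in 32.7% and 31.0% of Mo-MF. At least 2 counts of Egr1 were held by 80.0% and 79.9% of B-MF and by 15.9% and 14.3% of Mo-MF. Egr2 averaged 0.779 and 0.666 against 0.243 and 0.231 (1.29 on the log2 scale, SE 0.0713). Egr3 averaged 0.649 and 0.563 against 0.0650 and 0.0518 (2.15 on the log2 scale, SE 0.0730). Egr2 thus differed least among the Egr genes, and it kept a count in 15.1% of the cells of each Mo-MF library, against 2.72% and 2.41% for Egr3.

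With all cells counted, Nr4a1 had the largest difference of the genes that could be compared. It averaged 1.32 and 1.2 counts per B-MF against 0.0997 and 0.0857 per Mo-MF (2.82 on the log2 scale, SE 0.0634), and 48.8% and 45.6% of B-MF but 5.74% and 5.75% of Mo-MF held a count. Nr4a2 was low in both cultures, at 0.177 and 0.157 against 0.0388 and 0.0375 (0.95 on the log2 scale, SE 0.0562). Nr4a3 was close to absent, at 0.0138 and 0.0109 against 0.00371 and 0.00241, and was found in 57 and 43 B-MF and in 13 and 11 Mo-MF cells. The order of Nr4a1 and Egr1 depended on the setting: Egr1 had the larger difference without clusters of other cell types (3.27 against 2.80) and with a pseudocount of 1 (1.91 against 1.05). Nr4a3 did not reach the mean of 0.1 that a gene needed in B-MF or in Mo-MF to be compared, so 5 of the 6 genes entered the fit. These 5 were higher in B-MF, and in each of them both B-MF libraries lay above both Mo-MF libraries. Over all 8853 genes, limma called 22.6% higher and 17.4% lower in B-MF at an adjusted p of 0.05, and 39.9% had both B-MF libraries above both Mo-MF libraries. Since the genes were selected on this contrast, nothing is read from their count.

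**Figure D1:**
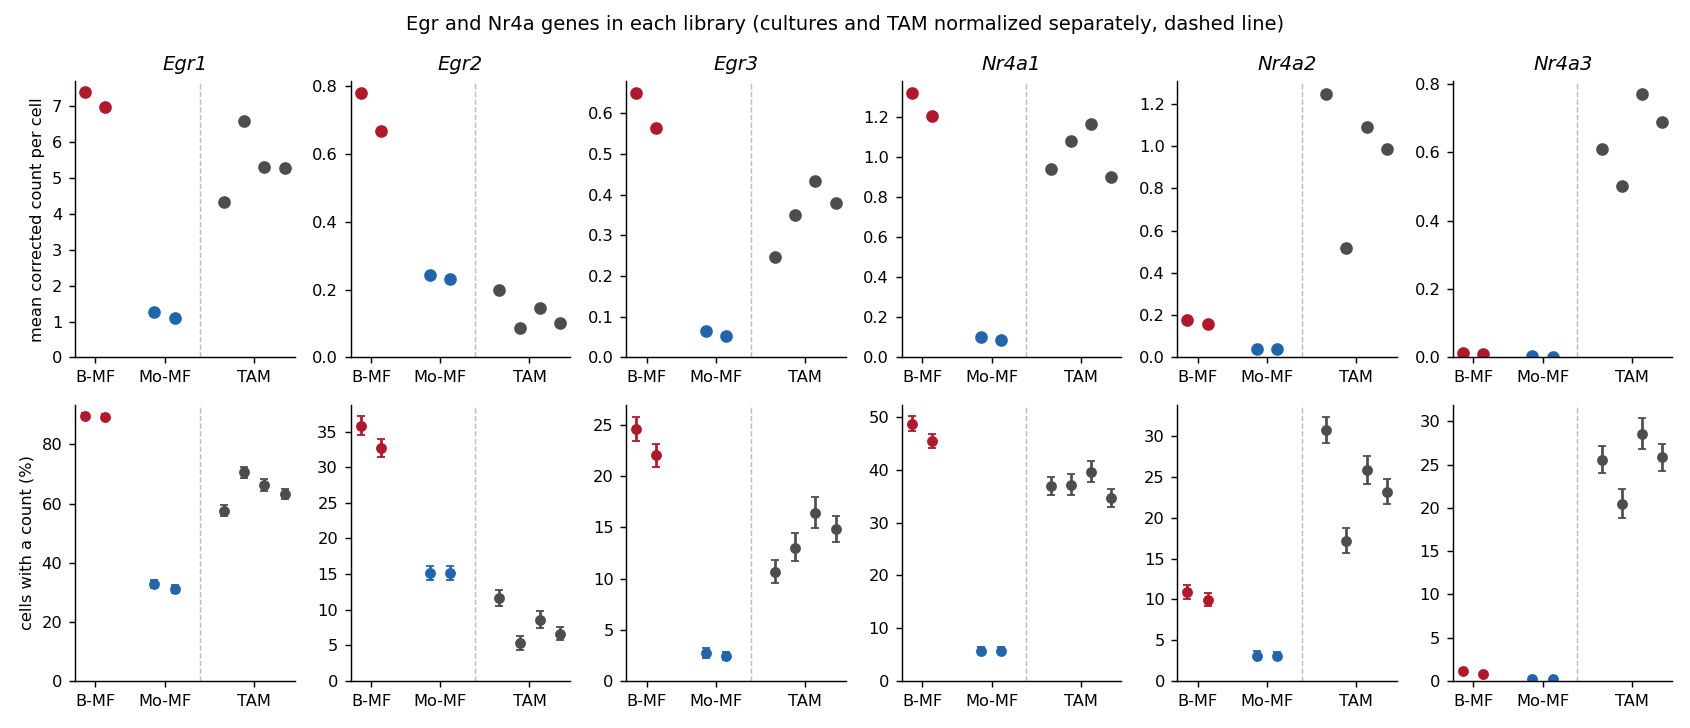
Levels of the 6 genes in each library. The upper row shows the mean corrected count per cell and the lower row the percent of cells with at least 1 count, with exact 95% binomial intervals for counting error only; each point is 1 library, in red for B-MF, blue for Mo-MF and grey for TAM, which were normalized separately. Egr1 lies at 6.97 and 7.40 in B-MF and at 1.10 and 1.27 in Mo-MF, and Nr4a3 rises above 0.1 in the TAM libraries only.

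Shares of cells with a count depend on the counts per cell. The share expected with each cell thinned at random to 5000 corrected counts was therefore also computed. As the counts were already corrected to a shared depth, this does not address sequencing depth. Egr1 was then expected in 69.4% and 69.0% of B-MF and in 16.5% and 15.3% of Mo-MF, and Nr4a1 in 23.7% and 22.3% against 2.12% and 1.97%. The order of the cultures was the same for each of the 6 genes. With library medians of 18350 to 19469 corrected counts, thinning could do little to change that order. No cell type is known to lack these genes, so RNA from other cells could be gauged only by the cluster with the lowest share. In Mo-MF, Nr4a1 was found in 2 of 515 cells of a neutrophil-like cluster led by Retnlg (0.388%) and Nr4a2 in 1 of them (0.194%), at a median of 15557 and 15866.5 corrected counts in the 2 libraries. Egr3 and Nr4a3 were found in 0 of 460 cells of a cluster led by Fth1, which allows a share of cells with a count of up to 0.652%. These clusters are part of Mo-MF, so that the share of all Mo-MF exceeds their lowest share says nothing. The shares of Nr4a3 over all Mo-MF, 0.268% and 0.204%, lay under that limit, while a cluster meeting monocyte markers held it in 5 of 123 cells (4.07%).

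Within Mo-MF, a large part of the corrected counts of Egr1 and most of those of Egr3 lay in the neutrophil-like cells. These cells averaged 6.10 and 5.68 Egr1 counts, a little under B-MF, and 0.497 and 0.463 Egr3 counts. They were 10.3% and 9.54% of the cells and held 49.7% and 49.4% of the Egr1 counts and 79.1% and 85.3% of the Egr3 counts. Nr4a1 did not follow, at 0.0659 and 0.0720 in these cells, which held 6.83% and 8.01% of its counts. When clusters of other cell types were left out, the differences between the cultures became 3.27 for Egr1 and 2.64 for Egr3 on the log2 scale. The Mo-MF means without them were 0.708 and 0.608 for Egr1 and 0.0152 and 0.00843 for Egr3, the latter in 0.785% and 0.555% of cells.

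Levels also differed among clusters of a culture, which were formed without the 6 genes and without related early genes. In B-MF, Egr1 was highest in a cluster with 3633 B-MF cells led by Tmem176a and Cd74, at 10.4 and 9.34 in the 2 libraries, and Nr4a1 was highest there too, at 1.66 and 1.5. In the largest cluster, led by Fabp3 and Myc, Egr1 was at 5.76 and 5.51 and Egr2 at 0.877 and 0.759, its highest level in a B-MF cluster of over 50 cells. For Egr1, dividing cells were lowest among clusters of over 50 cells. It was at 3.5 and 3.38 in cells led by the G2/M genes Cenpf and Ube2c, with the histone gene Hist1h1b also among the leading genes. In cells led by the S-phase genes Mcm6 and Mcm5 it was at 4.38 and 3.88. Nr4a1 was at 0.596 and 0.652 in the former and at 0.760 and 0.603 in the latter. Even these dividing B-MF cells lay above the main Mo-MF cluster, led by Bex1 and Fn1 and left unnamed. In that cluster Egr1 was at 0.491 and 0.403 and Nr4a1 at 0.0727 and 0.0759. A cluster of Mo-MF meeting all 5 monocyte markers, with 59 and 64 cells, reached 11.4 and 8.41 for Egr1 and 1.08 and 0.406 for Nr4a1. A B-MF cluster led by mitochondrial genes and Malat1 had 7.48 and 7.91 Egr1 counts, between the 2 largest clusters, and without it the Egr1 difference between cultures was 2.50. Among B-MF clusters of over 50 cells it had the lowest shares of cells with Egr2 and Egr3, 19.8% and 15.1%. The cells led by Cenpf and Ube2c followed at 23.2% and 18.3%. The 110 and 83 Mo-MF cells of the same cluster averaged 1.32 and 1.64 Egr1 counts, above the main Mo-MF cluster. All of them held a corrected count of Egr1, but 9.09% and 16.9% held at least 2. The files hold no uncorrected counts, so whether each such single count stands for a read was not tested.

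**Figure D2:**
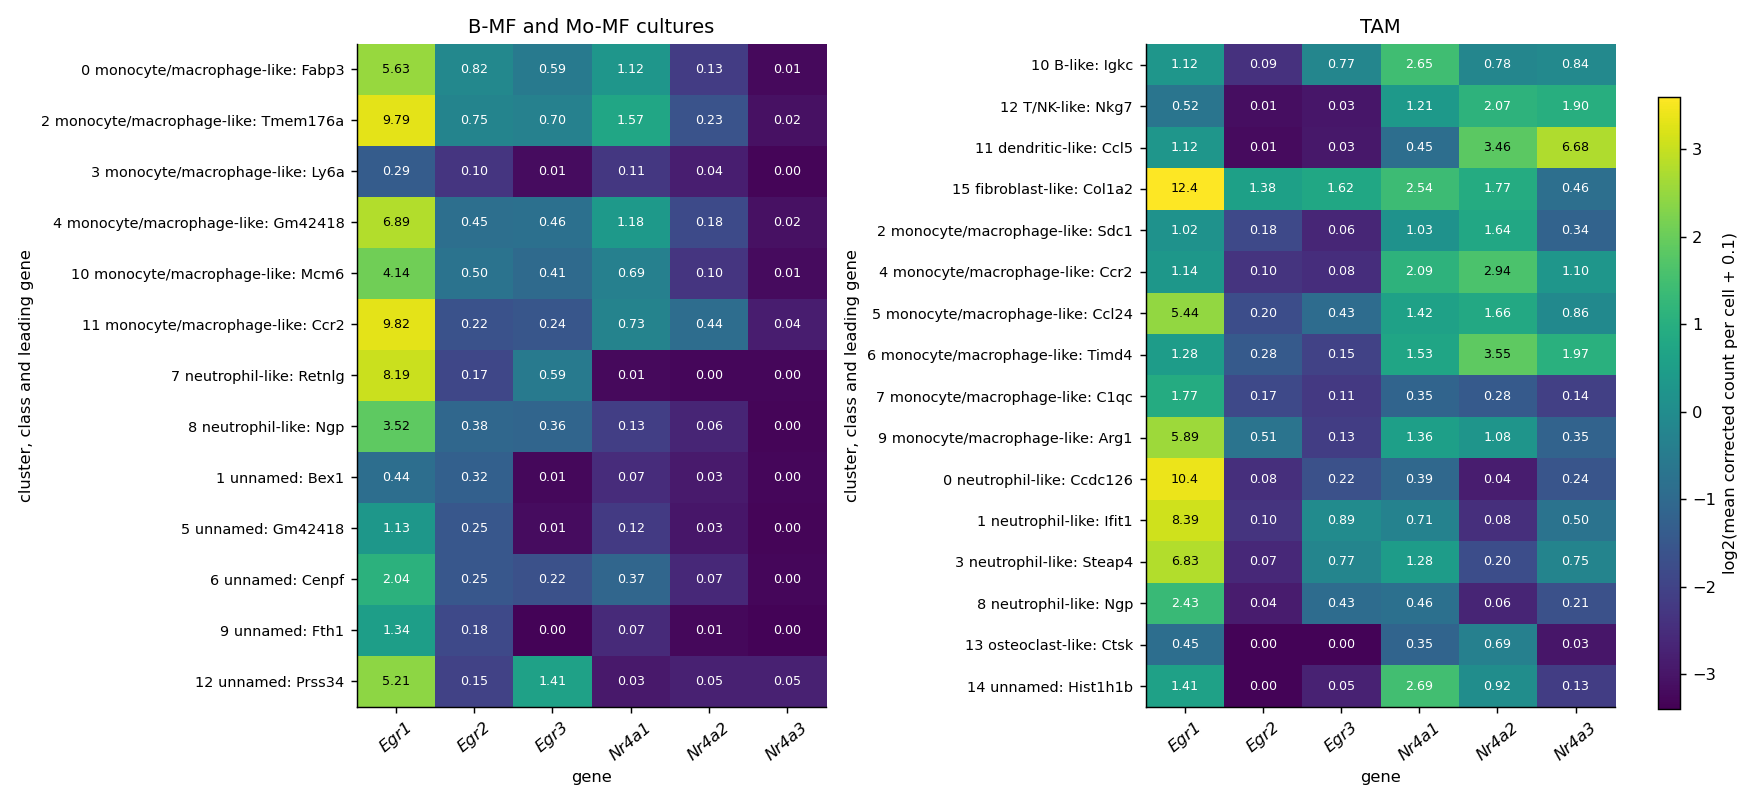
Mean corrected count per cell of the 6 genes (columns) in each cluster (rows) of the cultures and of TAM, over the cells of libraries with at least 10 cells in the cluster. Rows give the cluster, its class and its leading gene, color is log2(mean + 0.1) and the printed numbers are the means; Nr4a3 is close to 0 throughout the cultures, Nr4a2 is highest in the TAM clusters led by Timd4 and by Ccl5, at 3.55 and 3.46, and Nr4a3 in the one led by Ccl5, at 6.68.

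In TAM the balance of the genes was another one. As the tables were normalized separately and TAM were released from tissue by digestion, levels are set side by side and not tested. Egr1 had a mean of 4.34, 6.59, 5.31 and 5.30 counts per cell in libraries 2 to 5, and Nr4a1 of 0.940, 1.08, 1.17 and 0.900. These means lay between those of the 2 cultures, but TAM had fewer corrected counts per cell. Per 10000 corrected counts, Egr1 was at 5.36 to 8.36 in TAM and at 3.88 and 3.73 in B-MF. Nr4a1 was at 1.13 to 1.47 and at 0.690 and 0.644, so on that scale whole TAM libraries were above both cultures. Neutrophil-like cells held 68.35% to 86.82% of the corrected Egr1 counts of a TAM library. Monocyte/macrophage-like TAM had 1.83 to 2.70 Egr1 counts per cell, at median totals of 8504 to 8548 corrected counts. Judged by these medians, that class lay below B-MF and above Mo-MF for Egr1 on the same scale. Egr2 was at 0.20, 0.0854, 0.146 and 0.103 counts per cell, below its mean in Mo-MF, but per 10000 counts its 0.108 to 0.247 overlapped the 0.128 and 0.122 of Mo-MF. Egr3 was at 0.247, 0.350, 0.433 and 0.379, between the cultures, and per 10000 counts its 0.305 to 0.545 overlapped the 0.340 and 0.301 of B-MF. Nr4a2 was at 1.25, 0.517, 1.09 and 0.985 and Nr4a3 at 0.609, 0.501, 0.770 and 0.689 counts per cell. These genes were above every cultured library on either scale, with 0.657 to 1.54 and 0.636 to 0.971 per 10000 counts against at most 0.0928 and 0.00720. A count of Nr4a3 was found in 25.6%, 20.4%, 28.6% and 25.8% of TAM, against at most 1.09% of B-MF. At 5000 counts per cell these shares were 19.5%, 16.1%, 22.7% and 20.4% in TAM and 0.329% and 0.273% in B-MF.

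Comparison of the neutrophil-like and monocyte/macrophage-like classes within each TAM library addressed in which class each gene had the higher mean corrected count per cell. Egr1 and Egr3 were higher in the neutrophil-like class, and Egr2, Nr4a1, Nr4a2 and Nr4a3 in the monocyte/macrophage-like class, each in 4 of 4 libraries. The difference of Egr1 was known when the genes were chosen and is given without a test. Its mean was 8.0, 9.05, 8.23 and 8.08 in neutrophil-like and 2.21, 2.56, 2.70 and 1.83 in monocyte/macrophage-like cells of libraries 2 to 5, which came to 1.81 on the log2 scale (SE 0.0740). Egr3 was at 0.481, 0.467, 0.633 and 0.522 against 0.108, 0.120, 0.191 and 0.164 (1.35 on the log2 scale, SE 0.0585, adjusted p = 2.36e-10 from limma with the library as a block). Over all 6724 genes tested, 17.9% were higher and 73% were lower in the neutrophil-like class, with a median log2 difference of -0.61. The 4 of 6 genes that were lower were therefore close to the share of all genes, and the sizes of their differences are read against the median.

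Nr4a2 stood furthest below that median. It averaged 0.110, 0.0833, 0.0494 and 0.0892 counts in neutrophil-like and 1.90, 1.27, 2.16 and 2.27 in monocyte/macrophage-like cells (-3.43 on the log2 scale, SE 0.124, adjusted p = 5.25e-11 by limma). A count was found in 2.43% to 3.31% of the former and in 42.3% to 51.4% of the latter, and the monocyte/macrophage-like class held 77.3% to 91.8% of all Nr4a2 counts. The lowest share of any TAM cluster was 47 of 2416 cells (1.95%), in the largest neutrophil-like one, and RNA from other cells was not measured apart from it. Nr4a1 was at 0.524, 0.804, 0.753 and 0.563 against 1.22, 1.5, 1.49 and 1.23 (-0.95 on the log2 scale, SE 0.0596, limma adjusted p = 6.96e-09). Nr4a3 was at 0.402, 0.368, 0.451 and 0.413 against 0.643, 0.595, 0.975 and 0.909 (-0.77 on the log2 scale, SE 0.0787, limma adjusted p = 8.82e-07). Egr2 was at 0.0756, 0.0731, 0.0885 and 0.0768 against 0.281, 0.116, 0.211 and 0.146 (-0.66 on the log2 scale, SE 0.102, limma adjusted p = 4.40e-05). Egr1 and Egr3 thus lay above the median of all genes and Nr4a2 far below it, while the distances of the other 3 genes moved with the setting. With class sums scaled to the same total, the median was -0.53, Nr4a1 was at -0.84, Nr4a3 at -0.66 and Egr2 at -0.59. With a pseudocount of 0.01 the median was -0.90, Nr4a1 was at -1.05, Nr4a3 at -0.89 and Egr2 at -1.10. At clustering resolutions of 0.25 and 1, Nr4a3 was at -0.52 and -0.53, above the medians of -0.61 and -0.60. The neutrophil-like class at a resolution of 1 included a cluster of 726 cells led by C1qb, C1qa and C1qc, which also met macrophage markers.

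**Figure D3:**
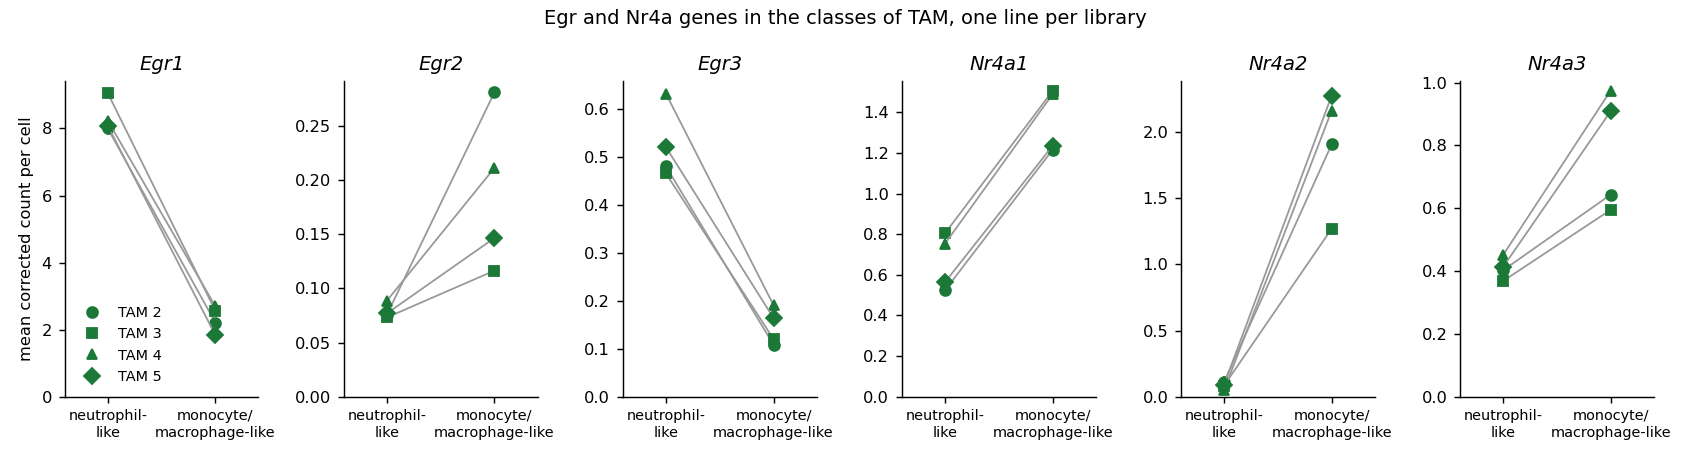
Mean corrected count per cell of the 6 genes in the neutrophil-like and monocyte/macrophage-like classes of TAM; each symbol is 1 library and lines join the classes of a library. Egr1 and Egr3 fall from the neutrophil-like to the monocyte/macrophage-like class in every library, and the other 4 genes rise, Nr4a2 from at most 0.110 to at least 1.27.

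Within the classes the genes marked different clusters. Granule-rich neutrophil-like cells, led by Ngp and Ltf, had 2.02 to 3.15 Egr1 counts, whereas the largest neutrophil-like cluster had 9.70 to 11.1. The latter held little Egr3, at 0.192 to 0.274, while neutrophil-like cells led by the interferon genes Ifit1 and Isg15 had 0.698 to 1.09 with 7.34 to 10.2 Egr1 counts. Among monocyte/macrophage-like clusters, Egr1 was highest in cells led by Arg1 and Pf4, at 4.54 to 7.09, and in cells led by Ccl24, at 5.15 to 5.76, a cluster that also met neutrophil markers. Without the latter, the Egr3 mean of the monocyte/macrophage-like class fell from 0.146 to 0.0941, and the class differences became 1.69 for Egr3 and 2.24 for Egr1 on the log2 scale. Cells led by Timd4 and the MHC class II genes H2-Eb1 and H2-Ab1, at 3.1 to 3.90, and cells led by Ccr2, at 1.45 to 3.66, had the most Nr4a2 of this class. The former also met dendritic markers, and at a resolution of 1 a cluster led by Timd4 and H2-Eb1 was named dendritic-like. Cells led by the complement genes C1qa, C1qb and C1qc had 0.237 to 0.390 Nr4a2 and 0.108 to 0.268 Nr4a3 counts, below the other monocyte/macrophage-like clusters of the same library.

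Smaller classes stood out for Nr4a genes. Dendritic-like cells, 22 to 29 per library and led by Ccl5, Fscn1 and Ccr7, had 6.25 to 7.23 Nr4a3 counts, the highest of any class. Their Nr4a2, at 2.55 to 4.52, overlapped that of T/NK-like cells, at 1.5 to 2.73. For Nr4a3 the order was dendritic-like, T/NK-like (1.47 to 2.08), then monocyte/macrophage-like (0.595 to 0.975) and B-like (0.50 to 1.03), which overlapped, then neutrophil-like (0.368 to 0.451) and osteoclast-like (0 to 0.1). B-like cells, 52 to 108 in 3 libraries, had 2.55 to 2.76 Nr4a1 counts, above the neutrophil-like and monocyte/macrophage-like classes, and 0.648 to 1.03 Egr3 counts, above neutrophil-like cells in each of these libraries. An unnamed cluster led by Hist1h1b, with 28 and 11 cells in libraries 3 and 4, had 2.39 and 3.45 Nr4a1 counts. Osteoclast-like cells held neither Egr2 nor Egr3 in 74 cells, which allows a share of cells with a count of up to 4.05% and sets no limit on cells that express the genes. Among 13 fibroblast-like cells of library 4, Egr1 was at 12.4 and Egr2 at 1.38. No sums over such small classes were tested.

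Co-expression of the 6 genes was described by counting, in each library, the cells with both genes of each of the 15 pairs. In B-MF, all pairs with a defined odds ratio had one above 1, 14 pairs in replicate 1 and 15 in replicate 2. For Egr2 and Egr3 the odds ratio was 3.4 and 3.28, with Pearson's r across cells of 0.33 and 0.31, the highest of any pair. Egr1 and Nr4a1 followed, with r = 0.30 and 0.25 and odds ratios of 4.02 and 2.46. Of the cells with Nr4a1, 95.5% and 93.7% also held Egr1, not far above the share of all B-MF with Egr1 given earlier. At least 4 of the 6 genes were found in 13.1% and 10.1% of B-MF, where independent genes of these shares would give 6.67% and 5.14%. None of the 6 was found in 6.19% and 5.80% of B-MF, but in 53.2% and 54.8% of Mo-MF. In Mo-MF, 14 and 15 of the pairs had an odds ratio above 1, although counts were low: 0.371% and 0.186% of cells held at least 4 of the genes, where independent genes would give 0.0240% and 0.0207%. Without other cell types, Egr1 and Nr4a1 had r = 0.30 and 0.28 in Mo-MF, as in B-MF. Cells of a library share its depth and its mix of cell types, and pairs of other genes were not counted, so these values are descriptions.

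Over all TAM, Egr1 was found together with Nr4a2 less often than independent genes would be. Odds ratios of Egr1 and Nr4a2 were 0.346, 0.260, 0.324 and 0.260 in libraries 2 to 5, and those of Egr1 with Nr4a1 and with Nr4a3 were under 1 in each library too. With at least 2 counts required, Egr1 and Nr4a2 stayed under 1, at 0.358, 0.258, 0.288 and 0.291, whereas Egr1 and Nr4a1 were at 1.34, 1.06, 0.871 and 0.851 and Egr1 and Nr4a3 at 1.02, 1.003, 0.915 and 0.971. Nr4a1 and Nr4a2 were found together more often, with odds ratios of 4.87, 5.29, 5.52 and 4.85. Within monocyte/macrophage-like cells, Egr1 and Nr4a2 stayed under 1, at 0.814, 0.717, 0.723 and 0.689, while Egr1 and Nr4a1 went above it, at 1.65, 1.30, 1.34 and 1.45. Nr4a2 and Nr4a3 had the highest correlation there, with r = 0.44, 0.31, 0.42 and 0.43. In neutrophil-like cells, 11, 15, 13 and 15 of the 15 pairs had an odds ratio above 1, and all 15 did in each library with at least 2 counts required, Egr1 with each Nr4a gene included. Egr1 with Egr3 had r = 0.0031, 0.060, 0.048 and 0.0074, a weak relation at most among these cells. At least 4 of the genes were found in 13.4%, 9.17%, 17.5% and 13.4% of monocyte/macrophage-like and in 2.97%, 3.48%, 3.64% and 3.66% of neutrophil-like cells. Independent genes would give 6.82%, 6.16%, 10.8% and 7.35% in the former and 1.13%, 1.03%, 1.45% and 1.19% in the latter.

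**Figure D4:**
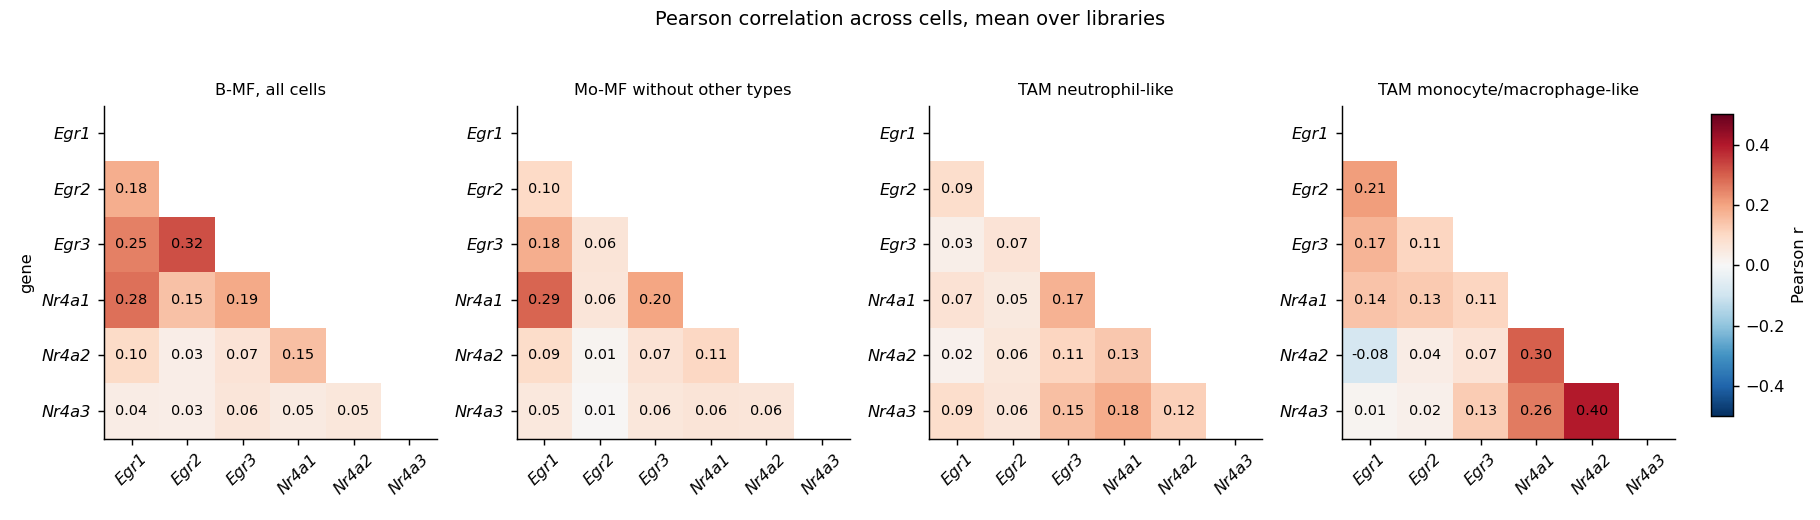
Pearson's r across cells between each pair of the 6 genes, on the natural log of 1 plus the corrected count, as the mean over libraries, in B-MF, in Mo-MF without other cell types and in the neutrophil-like and monocyte/macrophage-like classes of TAM. Egr2 and Egr3 stand out in B-MF, at 0.33 and 0.31 in its 2 libraries, and Nr4a2 and Nr4a3 in monocyte/macrophage-like TAM, at 0.31 to 0.44.

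Genes whose pattern was most like that of the 6 were ranked by the mean over libraries of Pearson's r across cells with the mean standardized value of the members, over all cells of each library. In B-MF, out of 9294 genes, they were Ier2 (r = 0.40), Ier3 (r = 0.34), Junb (r = 0.33), Zfp36 (r = 0.33) and Btg2 (r = 0.32), over 2 libraries. In Mo-MF, out of 9537 genes, Il1b led with r = 0.40, before Btg2 (r = 0.39), Ier2 (r = 0.39), Junb (r = 0.34) and Cxcl2 (r = 0.34). These Mo-MF libraries held neutrophil-like cells, and without other cell types neither Il1b nor Cxcl2 was among the first 10. The leading genes were then Ier2 (r = 0.33), Btg2 (r = 0.31), Fos (r = 0.29), Junb (r = 0.27) and the coagulation factor gene F13a1 (r = 0.25), out of 9532 genes. In TAM, out of 6586 genes and over 4 libraries, they were Junb (r = 0.38), Fosb (r = 0.30), Btg2 (r = 0.29), the histone demethylase gene Kdm6b (r = 0.29) and the NF-kB subunit gene Rel (r = 0.27). Within the neutrophil-like cells of TAM, Junb (r = 0.38) and Btg2 (r = 0.31) led, and within the monocyte/macrophage-like cells they led with r = 0.46 and 0.44. Junb and Btg2 were thus among the 5 in each of the 3 groups, over all cells and without other cell types.

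Other genes of the early response were counted in the same contrast of the cultures, beside the 22.6% of genes called higher and 17.4% called lower and a median log2 difference over all genes of 0.02. Of 8 AP-1 subunit genes tested, 4 were higher and none lower in B-MF, with a list median of 0.31. Fosb was at 1.47 in B-MF and 0.189 in Mo-MF as means of libraries (2.44 on the log2 scale, SE 0.0695), and Fos at 18.7 and 7.94 (1.23 on the log2 scale, SE 0.0523). Of 10 Ier, Btg and Klf genes, 7 were higher and 2 lower, with a median of 0.55. Ier2 (1.58 on the log2 scale) and Ier3 (1.49) led those that were higher, and Klf10 (-0.42) and the anti-proliferative gene Btg1 (-0.40) were lower. The messenger RNA decay factor gene Zfp36 was higher by 1.0 and its kin Zfp36l1 by 0.41, while Zfp36l2 fell by 0.33.

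Brakes of the ERK pathway and upstream factors were counted in the same way. Of 8 MAP kinase phosphatase and Sprouty family genes, 5 were higher and none lower in B-MF (median 0.28), led by Dusp5 (1.52 on the log2 scale) and Dusp6 (0.98), phosphatases that act on ERK. Of 17 genes from CSF1R to ERK, 7 were higher and 5 lower (median -0.04): Csf1r was higher by 0.91 and its ligand gene Csf1 by 0.90, whereas the kinase gene Braf fell by 0.33. Direct regulators were called in both directions. Of 6 SRF and partner genes tested none was higher and 1 was lower, the SRF coactivator gene Mkl1 (-0.20), and of 7 CREB genes Crtc3 was higher (0.25) and Atf1 lower (-0.66). Of 3 Egr co-regulator genes, Nab2 was higher by 0.25, and of 2 RXR genes, partners of Nr4a1 and Nr4a2, Rxra was lower (-0.28). The heat shock list, whose genes handling can induce, had 2 of 8 tested genes higher, Hspa8 (0.27) and Hsp90ab1 (0.19), with a median of 0.05. The part of handling in the differences between the cultures was not tested. These lists were chosen with earlier results of the same libraries known, and the calls are limma's at an adjusted p of 0.05 over all genes.

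Between the classes of TAM, with 17.9% of genes higher and 73% lower in neutrophil-like cells, the Ier, Btg and Klf list went against the background: 8 of 9 genes were higher and 1 was lower. Klf2 (1.96 on the log2 scale) and Btg2 (1.21) led, and the exception was Klf4 at -3.39, with means of 0.190 and 2.95. AP-1 genes were divided, with 4 of 9 higher, among them Fosl1 (1.07) and Junb (0.72), and 2 lower, Fosb (-1.35) and Fos (-1.05). Of 7 phosphatase and Sprouty family genes, Dusp1 was higher (0.81) and 5 were lower, led by Dusp4 (-2.62) and Spred1 (-1.85), and all 3 Zfp36 family genes were lower, with Zfp36 at -0.35, Zfp36l2 at -0.29 and Zfp36l1 at -0.18, each of them above the median of -0.61 over all genes tested. Of 17 genes from CSF1R to ERK 2 were higher, among them Csf1 (2.23), and 12 lower, led by Csf1r (-2.32) and Hras (-1.25). Csf1r is itself a marker that named the classes.

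Each list of regulators had more genes lower than higher in neutrophil-like cells, as did all genes. Of 4 SRF and partner genes, Elk4 was higher (0.35) and 3 were lower, led by Elk3 (-1.98) and Mkl1 (-0.81). Of 6 CREB genes, Atf1 was higher (0.22) and 5 were lower, led by Crtc3 (-1.89) and Crebbp (-0.23), and both RXR genes tested were lower (Rxra -0.72, Rxrb -0.51). Nab1 was higher (0.24), whereas Nab2 (-0.70) and Sp1 (-0.28) were lower. In the heat shock list 8 of 11 genes were lower, led by Hspe1 (-2.27) and Hsp90ab1 (-2.06), and Dnajb1 was higher (0.41), with a list median of -1.68. Of the other 2, Hsp90aa1 was at 0.08 and Dnaja1 at -0.12, neither of them called. The count of heat shock genes that fell was near the 73% of all genes lower. Handling of tissue can induce these genes, and their part in the difference of Nr4a2 was not tested.

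Open chromatin at the 6 genes was read from the peaks of the BMBP libraries. By the annotation of GRCm38, the Egr1 gene spans chromosome 18 from 34859823 to 34864984, Egr2 on chromosome 10 from 67535475 to 67542188, Egr3 on chromosome 14 from 70077203 to 70082614, Nr4a1 on chromosome 15 from 101254269 to 101274795, Nr4a2 on chromosome 2 from 57106830 to 57124003 on the minus strand and Nr4a3 on chromosome 4 from 48045153 to 48086447. A peak within 1000 bases of a start site was found in all 12 libraries for 5 of the 6 genes, as for 50.3% of 21851 protein-coding genes. Egr3 had one in 11 libraries, lacking it in BM CSF1R- replicate 2. Open start sites were thus common in these cells, and even Nr4a3, close to absent in the cultures, had a peak in each library.

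Strength was compared as the fold enrichment that the peak caller gave for the strongest peak at the start sites. Egr1 ranged from 8.40 to 10.3 over the 6 BM libraries and from 10.6 to 12.1 over the 6 spleen libraries, without overlap. In each library this peak lay in the region from 34860389 to 34861766, inside the gene and apart from the peak over the start site 34859823. That region holds another annotated start site of Egr1, 34861207. Among genes with a peak in all 12 libraries, 24.8% had every spleen library above every BM library, and Egr1 was 1 of the 5 members among them to do so. The opposite order was found for 4.79% of genes and for 0 of these members, but the strongest peak of Nr4a2 was not the same one in each library. Egr2 ranged from 14 to 15.4 in BM and from 13.6 to 15.3 in spleen, and Nr4a1 from 12.2 to 16.0 and from 14.4 to 17.9. Nr4a3 was weak, at 3.08 to 4.28 and 3.30 to 4.65. For Nr4a2 the strongest peak, at 10.6 to 12 in BM and 8.53 to 10.7 in spleen, lay at the start site 57124003 in all BM and 3 spleen libraries and at the start site 57115038 in the other 3. At 57124003 alone, Nr4a2 was at 10.6 to 12 in BM and at 6.65 to 10.2 in spleen, without overlap, and at 57115038 it was at 6.41 to 8.43 and at 8.27 to 10.7. With each gene read at the 5′ end of its model only, a setting chosen after seeing the data, 4.87% of 10448 genes had every BM library above every spleen library, Nr4a2 among them, and 24.6% had the opposite order, Egr1 among them. For Egr1 this setting read the same peak inside the gene. Egr3 was at 2.75 to 3.29 in the 5 BM libraries with a peak and at 4.23 to 5.63 in spleen. In neither tissue did CSF1R+ and CSF1R- libraries separate by their strongest peak for any of the 5 members with a peak in all libraries. Over all such genes, CSF1R- lay above CSF1R+ in BM for 28.4% and in spleen for 0.637%, and CSF1R+ above CSF1R- for 0.51% and 15.9%. At the start site 57115038 of Nr4a2, BM CSF1R- libraries were at 8.06 to 8.43 and BM CSF1R+ libraries at 6.41 to 7.39. Egr3, without a peak in BM CSF1R- replicate 2 and so outside these counts, was at 2.98 to 3.29 in BM CSF1R+ libraries. It was at 2.97 and 2.75 in the BM CSF1R- libraries with a peak, and its CSF1R+ and CSF1R- values overlapped in spleen. For CSF1R+ against CSF1R-, with 3 libraries against 3, an exact permutation test cannot go below p = 0.1, so none was run. The order of BM and spleen libraries was not tested either. Fold enrichment depends on each library's depth and background, which the peak lists do not hold.

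**Figure D5:**
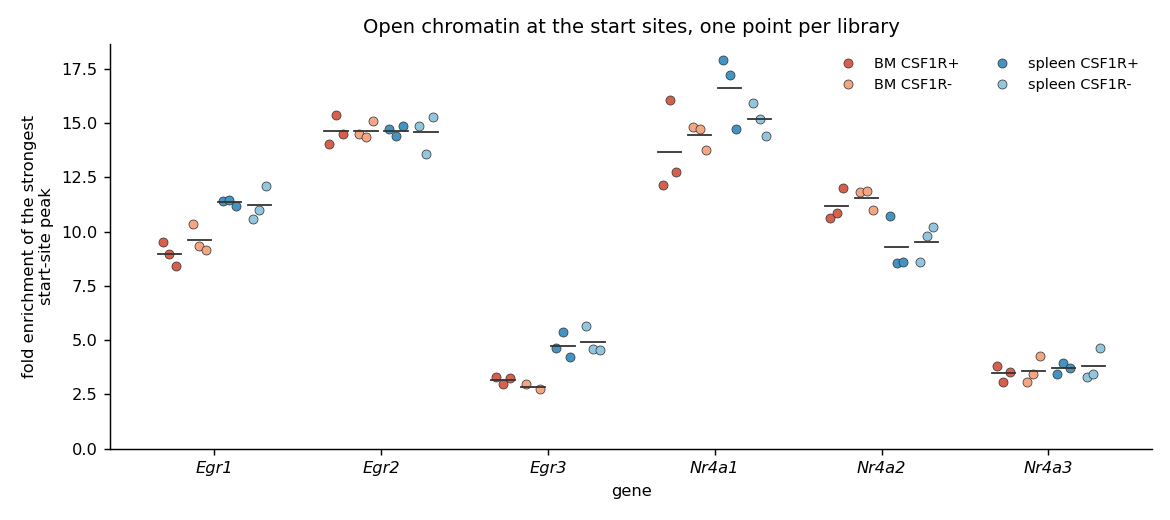
Fold enrichment of the strongest ATAC-seq peak within 1000 bases of a start site for the 6 genes; each point is 1 library of BMBP (3 per group, 2 for Egr3 in BM CSF1R-) and bars are group means. Among the 5 genes with a peak in all 12, Egr1 separates all BM from all spleen libraries, by a peak inside the gene, in a region that holds its start site 34861207. The peaks of Nr4a2 come from 2 start sites, and Egr3 and Nr4a3 are the weakest.

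Around the genes, within 10000 bases of either end, merged peaks formed 14 regions at Nr4a1, 6 at Egr1, 6 at Nr4a3, 4 at Nr4a2, 3 at Egr3 and 2 at Egr2. All 6 regions at Egr1, including those centered 9525, 5170, 4473 and 3429 bases upstream of the gene start, and both at Egr2 were open in all 12 libraries. At Nr4a1, 7 regions were open in all 12, and 2 were open in all 6 BM and in no spleen library, centered 6067 bases upstream and 18520 bases downstream of the gene start. Of 73898 merged regions as near to protein-coding genes, 33.2% were open in all 12 libraries, 10.4% in all BM and no spleen library and 1.96% in all spleen and no BM library. No region at the other 5 genes was open in every library of one tissue alone. No region at any of the 6 genes had a peak in all 3 CSF1R+ and no CSF1R- library of a tissue, or the opposite, as 1.52% of all such regions had.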

How the data were processed

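The study measured single-cell RNA (10x Genomics 3′ libraries) in B-MF, Mo-MF and TAM, and open chromatin by ATAC-seq in BMBP. The deposited single-cell values were made by the authors as the natural log of 1 plus the SCTransform-corrected count, after alignment and counting with Cell Ranger and a filter on genes per cell. Per the labels and methods, the ATAC-seq reads were aligned to mm10 with BWA and peaks were called for each library with MACS, and the deposited peak lists give a fold enrichment over background as a ratio and the −log10 of p and q values. The depth of each single ATAC-seq library is unknown here, as these lists carry no counts.

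Corrected counts were recovered as the rounded exponential minus 1, whole within 1e-06 on the log scale. Being model outputs, they were not given a count test: means per library (or per library and class) were compared as log2(mean + 0.1) with limma 3.58.1 in R 4.3.3, for genes whose mean reached 0.1 in a group, with Benjamini-Hochberg adjustment over all genes tested and calls at 0.05. The TAM fit had the library as a block. P-values measure only the spread between libraries, which in the TAM fit is that of the class difference from library to library. Cells were clustered per table (2000 variable genes, 30 principal components, 20 neighbours, Leiden resolution 0.5, leidenalg 0.10.2), leaving out the 6 genes, AP-1, Ier, Btg, Klf, phosphatase, Sprouty, Zfp36 and heat shock genes. A class was named where at least 3 markers and 50% of a list were met, and some clusters met several lists. No doublet caller was run, since values were corrected counts. Intervals for shares are exact binomial and, like the limits for shares of 0 (3 counts of the total), cover counting error only.

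Start-site peaks lay within 1000 bases of a start in GENCODE for GRCm38. Motifs were sought in RefSeq promoter windows. The scripts were tested on simulated data. The 6 genes, the marker lists and the related lists were chosen with earlier results of these data known. Named in the text are the 6 genes, the 2 called genes with the largest difference in each direction of each related list, and the 5 genes most like the 6 in each group, besides leading genes of clusters. Some items that this rule takes are not reported here. Alternatives were other pseudocounts, filters, scalings and resolutions, a replicate block, leaving out each library, thinning to 5000 counts, and a narrower window or stricter peaks. Leaving out the cluster led by mitochondrial genes or a mixed TAM cluster, reading peaks at the 5′ end of each gene only, and ranking like genes without other cell types or within TAM classes were chosen after seeing the data. Same-numbered B-MF and Mo-MF libraries had a correlation of deviations of 0.126 over 8633 genes, but with 2 pairs a number does not establish pairing. The 4 TAM libraries carry numbers that differ from those of the labels, and were used as replicates of 1 group without a match to single samples.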

Additional observations from a re-analysis of the deposited data

How the results depend on the processing

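Under every alternative of the comparison of cultures, the tested genes among Egr1, Egr2, Egr3, Nr4a1 and Nr4a2 were higher in B-MF, in the contrast on which they were chosen. Their log2 differences ranged from 1.91 to 3.27 for Egr1, 0.477 to 1.57 for Egr2, 0.601 to 3.17 for Egr3, 1.05 to 3.63 for Nr4a1 and 0.169 to 1.88 for Nr4a2, the low ends with a pseudocount of 1. With no filter on low values Nr4a3 entered the fit too, at 0.12. Counts over all genes moved too. Leaving out 1 library gave 1142 to 4003 genes higher and 988 to 3039 lower in B-MF, against 1998 and 1544 with all 4: 4003 were higher without B-MF replicate 2, 1171 without Mo-MF replicate 1 and 1142 without Mo-MF replicate 2, and 3039 were lower without B-MF replicate 1 and 988 without Mo-MF replicate 1. In those fits the lone library of a group is assumed to vary like the other group. Median-of-ratios scaling gave 2421 lower genes. With the replicate number as a replicate block, 2266 genes were higher and 1741 lower.

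In TAM, 2 genes were higher and 4 lower in neutrophil-like cells under each alternative, except with a minimum mean of 0.5, where Egr2 was not tested and 3 were lower. That minimum gave 694 higher and 1649 lower genes, and no filter gave 8444 lower ones, as fewer or more genes were tested. Over all fits the adjusted p from limma was at most 0.0116 for Egr2, 0.00158 for Nr4a3, 8.35e-05 for Nr4a2, 6.95e-05 for Nr4a1 and 2.21e-05 for Egr3. With at least 2 counts required in a cell, 9 pairs had an odds ratio above 1 in each Mo-MF library. A peak at the start in every library was found for 5 of the 6 genes, and for 6 without BM CSF1R- replicate 2. With peaks read at the 5′ end of each gene only, 1 gene, Nr4a2, in place of 0 had all BM above all spleen libraries. Nr4a3 was found in at most 57 cells of a cultured library, which limits what its values there can show.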
